A study of Mus musculus with 24 samples.

Results

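The genes described here are 10 immediate early genes: Egr1, Egr2, Fos, Fosb, Jun, Junb, Ier2, Ier3, Dusp1 and Nr4a1. They were taken by symbol from a table of 55359 mouse genes. No value entered the rule, but the set was proposed with earlier results of these data known. They were measured in cultured oligodendrocytes, the myelin-forming cells of the brain. The cells were taken from cortices of C57BL/6J pups aged 5 to 7 days and sorted on magnetic beads for the surface antigen O4. All wells were differentiated for 3 days, mainly with the thyroid hormone T3, and then kept for 3 days with or without ethanol. Experiment 1 had 6 wells with 30 mM ethanol and 6 control wells, and experiment 2 had 6 wells with 10 mM ethanol and 6 control wells. Controls were kept in another incubator than the ethanol wells, so the effects of ethanol and of the incubator cannot be told apart, and neither can dose and experiment. The labels call the wells biological replicates but do not say whether they came from separate pups, so p-values measure the spread between wells.

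Immediate early genes are transcribed within minutes of a stimulus, without the need for newly made protein. Growth factors, neurotransmitters and stress reach them through the ERK and other MAP kinases, which act on serum response factor (SRF) with its partners and on CREB, the factor bound to cyclic AMP response elements. Most encode transcription factors, others encode inhibitors that switch the signal off, and their transcripts are short-lived. In the brain they are widely used as marks of recent neuronal activity, and ERK signalling in oligodendrocytes is known for its part in myelin growth.

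Promoter sequences are shown for Fos, Jun, Junb and Dusp1, because the first 3 rose with 10 mM ethanol and Dusp1, a feedback inhibitor of the same pathway, was not called there. They are the 250 bases before the gene's start in RefSeq on GRCm38.p6, another build than the GRCm39 of the counts. Such a sequence was found for 8 of the 10 genes, all but Egr1 and Ier2. Capitals mark the cyclic AMP response element or its core (TGACGTCA, TGACG), the related TGACATCA and the TATA motif (TATAAA), found by exact match on both strands.
Fos, chr12:85473640-85473889, plus strand: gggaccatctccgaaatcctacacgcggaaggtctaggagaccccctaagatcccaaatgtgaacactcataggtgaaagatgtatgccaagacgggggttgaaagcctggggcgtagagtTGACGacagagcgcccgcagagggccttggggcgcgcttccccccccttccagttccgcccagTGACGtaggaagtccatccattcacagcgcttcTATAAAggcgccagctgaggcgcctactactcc
Jun, chr4:95052223-95052472, minus strand: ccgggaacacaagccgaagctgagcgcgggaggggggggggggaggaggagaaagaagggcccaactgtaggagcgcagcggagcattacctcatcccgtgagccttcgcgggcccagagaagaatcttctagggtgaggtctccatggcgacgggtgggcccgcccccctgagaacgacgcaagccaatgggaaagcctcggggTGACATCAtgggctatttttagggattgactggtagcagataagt
Junb, chr8:84978749-84978998, minus strand: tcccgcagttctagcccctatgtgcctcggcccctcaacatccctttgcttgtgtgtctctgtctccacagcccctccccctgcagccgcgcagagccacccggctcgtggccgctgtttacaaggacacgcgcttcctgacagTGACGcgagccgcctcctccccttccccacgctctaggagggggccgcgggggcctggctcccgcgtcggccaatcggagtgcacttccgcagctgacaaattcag
Dusp1, chr17:26508473-26508722, minus strand: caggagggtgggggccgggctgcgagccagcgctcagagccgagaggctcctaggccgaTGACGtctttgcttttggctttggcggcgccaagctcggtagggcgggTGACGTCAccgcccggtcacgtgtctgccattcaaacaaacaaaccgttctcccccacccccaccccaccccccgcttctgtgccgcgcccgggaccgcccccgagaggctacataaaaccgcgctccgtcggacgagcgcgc
In Fos, TGACG began 129 and 66 bases before the start and TATAAA 33 bases before it. In Jun, TGACATCA began 45 bases before the start, in Junb a TGACG 106 bases before it, and in Dusp1 a TGACG 191 bases and the full TGACGTCA 143 bases before it. TGACG, which TGACGTCA contains, occurred in 17.8% of 32851 RefSeq promoter windows of the same length, TGACGTCA in 1.55%, TGACATCA in 2.93% and TATAAA in 12.4%. The other letters searched were the CArG box bound by SRF (in 1.47% of windows), the AP-1 site TGANTCA (6.75%), the EGR site GCGNGGGCG (4.7%) and the ETS core CCGGAA (12%), and none of these was in the 4 sequences shown. Of the genes not shown, Egr2 had a CArG box in 4 of its 5 windows, of which 3 also held 2 TGACG and 1 held 3 CCGGAA. Nr4a1 had 4 TGACG, all on the other strand, 1 GCGNGGGCG and 1 CCGGAA. Fosb had 1 TGACG and 1 GCGNGGGCG, and Ier3 had none of the letters searched. A match describes the letters and shows no binding. Sites farther than 250 bases before the start, or with other letters, were not searched. A missing match therefore does not show that a gene lacks such a site.

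The libraries were made by 3′ tag sequencing, which counts reads near the 3′ end of transcripts, so that counts do not scale with gene length. Wells held 1184609 to 1817028 counts. Levels are given as CPM, counts relative to library size, scaled together over the 24 wells, and 3 counts correspond to 1.70 to 2.53 CPM on this scale. The change of a gene is its log2 fold change in edgeR's quasi-likelihood test, called at a Benjamini-Hochberg adjusted p under 0.05 over all genes tested. All 10 mature oligodendrocyte markers had counts in every group, with a summed level of 4732 to 6094 CPM in the control wells. Astrocyte markers summed to 3634 to 4692 CPM in the controls. Microglia markers summed to 251 to 423 CPM in the experiment 1 controls and 2808 to 3309 CPM in those of experiment 2. In bulk samples, fewer cells of a type and less RNA per cell cannot be told apart.

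With 10 mM ethanol, 5 of the 8 genes that passed the filter on low counts rose: Egr1, Ier2, Fos, Jun and Junb. None of the 8 fell. The same 5 were called by limma-voom, while DESeq2 called Fos and Jun among the 3 to which it gave an adjusted p. Of all 13538 genes tested, 0.391% rose, 0.266% fell and 0.657% were called in either direction. The wells of 3 of the 8 lay wholly above the controls, as did 0.51% of all genes tested, and those of 0 lay wholly below, as did 0.259%. Egr1 had the smallest p of any gene. With 30 mM ethanol none of the 8 was called by edgeR, against 9.67% of 13235 genes (3.02% higher and 6.65% lower). None was called by limma-voom, nor by DESeq2 among the 7 to which it gave an adjusted p. In edgeR 4 of the 8 had an unadjusted p under 0.05, as did 23.5% of all genes tested. None separated from its controls in either direction at 30 mM, against 0.612% of genes wholly above and 3.44% wholly below. The median change of the 8 was 0.36 on the log2 scale at 10 mM, with -0.00234 over all genes tested, and 0.05 at 30 mM, with 0.02 over all genes tested.

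**Figure D1:**
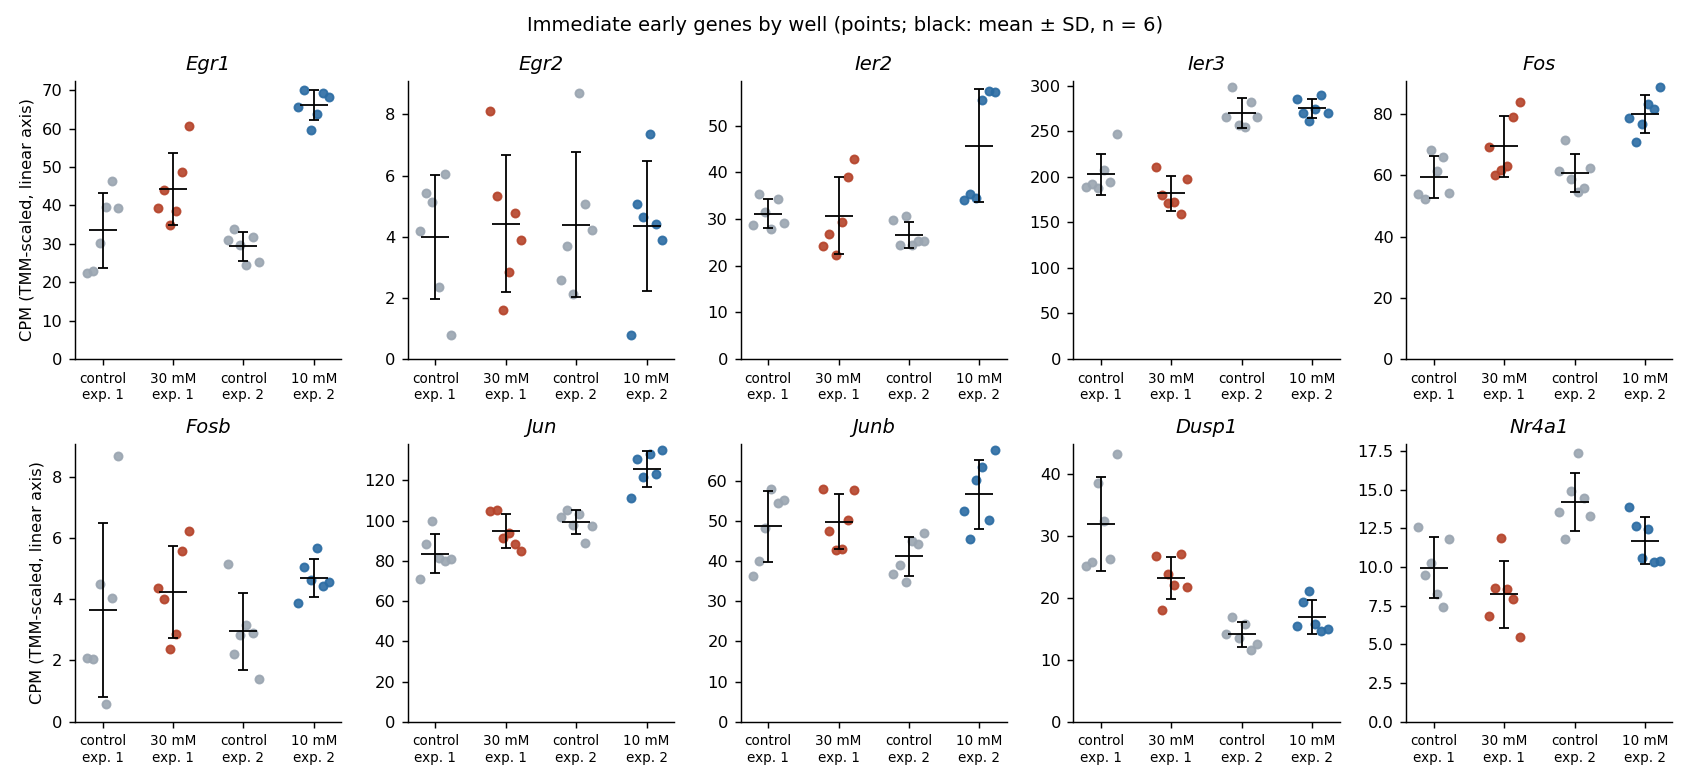
CPM of each of the 10 genes in every well, one panel per gene and one column of points per group, with the group mean and SD. Egr1, Ier2 and Jun are the genes whose 6 wells with 10 mM ethanol all lie above the 6 control wells of that experiment.

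Egr1 encodes a zinc-finger transcription factor and is among the fastest genes to respond to ERK. In the wells with 10 mM ethanol its level was 59.6 CPM at the lowest, 66.9 at the median and 70.0 at the highest, and in their controls 24.5, 30.4 and 33.9 CPM. The groups were far apart, with no overlap. The fold was 2.20 (95% interval 1.90 to 2.56; log2 fold change 1.14, SE 0.107, adjusted p = 1.5e-12). With 30 mM ethanol Egr1 lay at 34.9, 41.6 and 60.7 CPM and in the controls of that experiment at 22.3, 34.8 and 46.5 CPM. Here 2 of 6 ethanol wells lay above the highest control, and the other 4 lay within the controls' range. The log2 fold change was 0.45 (95% interval 0.14 to 0.75, adjusted p = 0.0553), just short of the threshold. It passed the threshold in 8 of 20 alternative analyses, among them those without the ethanol well of replicate 1 (adjusted p = 0.0232) or 3 (0.0449) and those without the control well of replicate 5 (0.0191) or 6 (0.0350). The levels in both control groups overlapped (log2 difference 0.14, 95% interval -0.14 to 0.43, adjusted p = 0.433). Ordered by median, Egr1 was highest with 10 mM ethanol, then with 30 mM, then in the controls of experiment 1 and of experiment 2. The lowest 10 mM well (59.6 CPM) was below the highest 30 mM well (60.7 CPM), and the 30 mM wells overlap both neighbours in that order.

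Egr2, the zinc-finger factor known for driving myelination by Schwann cells of peripheral nerve, was near the detection limit. It had 1 to 13 counts per well, and its 4 groups summed to 38, 36, 39 and 36 counts for 30 mM, its controls, 10 mM and its controls. It did not pass the filter on low counts. Tested without that filter, its log2 fold change was 0.18 at 30 mM (adjusted p = 0.846) and 0.07 at 10 mM (adjusted p = 0.991), so no change was detectable at this depth.

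Fos, Fosb, Jun and Junb encode subunits of AP-1, a dimer of a Fos and a Jun protein or of Jun proteins that binds TGANTCA sites. Fos lay at 70.9, 80.3 and 89.0 CPM (lowest, median and highest well) with 10 mM ethanol and at 54.5, 60.1 and 71.6 CPM in the controls. Of the 6 ethanol wells, 5 lay above the highest control. The log2 fold change was 0.38 (SE 0.0889, adjusted p = 0.0184), a fold of 1.30. In experiment 1 Fos lay at 60.1, 66.0 and 84.1 CPM with 30 mM ethanol and at 52.2, 57.9 and 68.2 CPM without, with 3 of 6 wells above the highest control. The change on the log2 scale was 0.27 (95% interval 0.06 to 0.48, unadjusted p = 0.0140, adjusted p = 0.0993). It was called only without the ethanol well of replicate 2 (adjusted p = 0.0459) among the analyses that each left out 1 well.

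Jun lay at 111, 127 and 135 CPM with 10 mM ethanol and at 89.0, 99.9 and 105.5 CPM in the controls, without overlap. Its log2 fold change was 0.33 (SE 0.0745, adjusted p = 0.0158). Jun lay at 84.8, 92.5 and 105.5 CPM with 30 mM ethanol and at 71.2, 81.3 and 99.7 CPM in its controls, and 2 of 6 ethanol wells lay above the highest control. This gave a log2 fold change of 0.23 (95% interval 0.05 to 0.41, unadjusted p = 0.0117, adjusted p = 0.0890). Jun also differed between the untreated wells of both experiments and was lower in experiment 1 (log2 difference -0.29, adjusted p = 0.00345).

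Junb lay at 45.6, 56.4 and 67.5 CPM with 10 mM ethanol and at 34.8, 41.6 and 47.0 CPM in the controls, with 5 of 6 ethanol wells above the highest control. Junb rose by a log2 fold change of 0.46 (SE 0.108, adjusted p = 0.0201), a fold of 1.38. Its wells with 30 mM ethanol lay at 42.8, 48.8 and 57.9 CPM against 36.3, 51.4 and 57.9 CPM, which overlap almost fully (log2 fold change 0.08, 95% interval -0.16 to 0.32, adjusted p = 0.727). Fosb had 1 to 11 counts per well and did not pass the filter. Its level was 3.86 to 5.66 CPM with 10 mM ethanol and 1.40 to 5.16 CPM in the controls, and the groups overlap. Without the filter its log2 fold change was 0.66 at 10 mM (unadjusted p = 0.0917, adjusted p = 0.651) and 0.27 at 30 mM (adjusted p = 0.777).

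Ier2 encodes a nuclear protein that acts in transcription. It had the second largest rise of the 8 genes at 10 mM, with 34.0, 45.4 and 57.4 CPM against 24.3, 25.3 and 30.5 CPM in the controls. All ethanol wells lay above all controls, but they fell into 2 sets, with replicates 1, 2 and 3 at 34.0 to 35.4 CPM and replicates 4, 5 and 6 at 55.4 to 57.4 CPM. Ier2 rose by a log2 fold change of 0.77 (SE 0.133, adjusted p = 0.000187), a fold of 1.71. With 30 mM ethanol Ier2 lay at 22.2, 28.0 and 42.8 CPM and in the controls at 27.8, 30.3 and 35.3 CPM. This was a log2 fold change of 0.02 (95% interval -0.29 to 0.33, adjusted p = 0.959), and its sign turned under some alternative settings.

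Ier3, an inhibitor of cell death and a substrate of ERK, lay at 261 to 290 CPM with 10 mM ethanol and at 254 to 298 CPM in the controls, and the ethanol wells lay within the range of the controls. The log2 fold change was 0.01 (95% interval -0.11 to 0.12, adjusted p = 0.989), and the upper end of the interval is below the changes measured for Egr1, Ier2, Fos, Jun and Junb. At 30 mM, Ier3 lay at 158.6, 176.0 and 210.5 CPM against 187, 193 and 247 CPM in the controls (log2 fold change -0.11, adjusted p = 0.438). Its largest difference was between the untreated wells of both experiments. All 6 wells of experiment 1 were below all 6 of experiment 2 (log2 difference -0.46, SE 0.0657, adjusted p = 1.04e-08).

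Dusp1 encodes a nuclear phosphatase that removes phosphate from MAP kinases and so ends the signal. It lay at 14.7, 15.6 and 21.2 CPM with 10 mM ethanol and at 11.6, 13.8 and 17.0 CPM in the controls, with 2 of 6 ethanol wells above the highest control (log2 fold change 0.24, 95% interval -0.12 to 0.60, adjusted p = 0.703). Dusp1 with 30 mM ethanol lay at 18.0, 23.0 and 27.1 CPM against 25.1, 29.4 and 43.3 CPM, and 4 of 6 ethanol wells lay below the lowest control. This gave a log2 fold change of -0.40 (95% interval -0.72 to -0.08, unadjusted p = 0.0144, adjusted p = 0.101). The untreated wells of experiment 1 were all above those of experiment 2, by a log2 difference of 1.13 (SE 0.165, adjusted p = 2.13e-08).

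Nr4a1 encodes an orphan nuclear receptor. It lay at 10.3, 11.5 and 13.9 CPM with 10 mM ethanol and at 11.8, 14.0 and 17.4 CPM in the controls, with 3 of 6 ethanol wells below the lowest control. It was the one tested gene of the 8 with a change below 0 at 10 mM (log2 fold change -0.30, 95% interval -0.69 to 0.09, adjusted p = 0.640). At 30 mM the gene lay at 5.45, 8.28 and 11.9 CPM against 7.41, 9.89 and 12.6 CPM (log2 fold change -0.22, adjusted p = 0.651). These levels rest on few reads, and the interval is wide. In the control wells Nr4a1 was lower in experiment 1 (log2 difference -0.56, adjusted p = 0.0248). That call was lost without the experiment 1 control of replicate 4 (0.0656) or 5 (0.0661), without the experiment 2 control of replicate 4 (0.0648), with DESeq2 (0.0580) and without the low-count filter (0.0856).

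**Figure D2:**
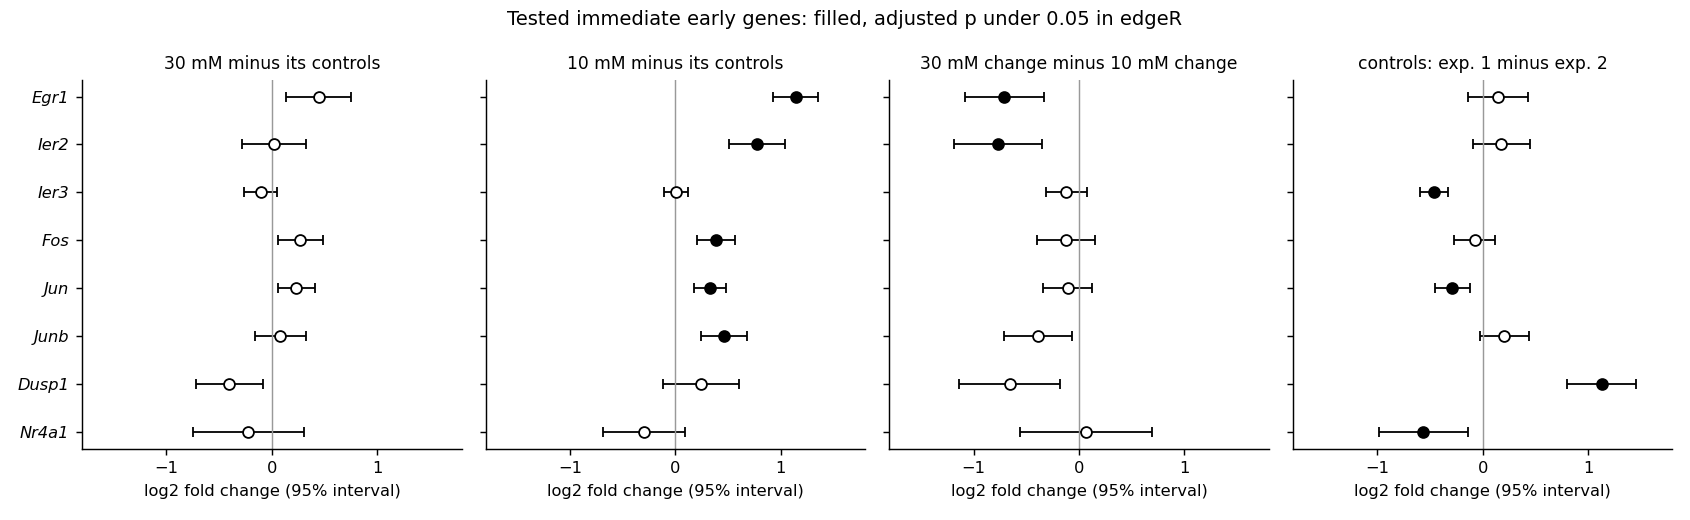
Log2 fold change of each tested gene with its 95% interval at 30 mM and at 10 mM, each against the controls of its own experiment, for the difference of the 2 changes, and between the controls of both experiments. Filled points passed the threshold. At 10 mM the intervals of Egr1, Ier2, Fos, Jun and Junb lie above 0, from a change of 1.14 for Egr1 to 0.33 for Jun.

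Leaving out single wells kept Egr1 (log2 fold change 1.10 to 1.19) and Ier2 (0.70 to 0.85) called at 10 mM in each of 12 cases. Fos, Jun and Junb were all lost without the ethanol well of replicate 4, with adjusted p of 0.0521, 0.0557 and 0.0683. Fos and Jun were lost without the control well of replicate 5 (0.0641 and 0.0644), and Fos without that of replicate 4 (0.0534). Junb was lost without the ethanol well of replicate 6 (0.0601) or the control wells of replicate 1 (0.0640) or 3 (0.0585). The log2 fold changes of these 3 genes stayed between 0.30 and 0.51. In a fit of all 24 wells together, Egr1, Ier2 and Jun stayed called, while Fos (0.0630) and Junb (0.0708) were not.

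The difference between the doses was tested in 1 model over the 24 wells. It called 2 of the 8 genes, against 3.28% of 14655 genes in either direction, and both had the smaller change at 30 mM (2.4% of genes lower, 0.88% higher). The change of Egr1 was smaller by a log2 difference of -0.71 (95% interval -1.08 to -0.33, adjusted p = 0.0195), and that of Ier2 by -0.76 (95% interval -1.18 to -0.35, adjusted p = 0.0251). Egr1 was not called without the experiment 1 control well of replicate 5 (adjusted p = 0.0628). Ier2 was not called without the 30 mM well of replicate 3 (0.0597) or the 10 mM well of replicate 6 (0.0555). With upper-quartile scaling neither was called, with adjusted p of 0.0508 for Egr1 and 0.0624 for Ier2. For Fos the difference was -0.13 (95% interval -0.40 to 0.15) and for Jun -0.11 (-0.34 to 0.12), so the wells did not show that these changes differ with dose, nor that they are alike. Dusp1 (-0.66, unadjusted p = 0.00771, adjusted p = 0.116) and Junb (-0.39, unadjusted p = 0.0204, adjusted p = 0.188) fell short of the threshold.

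The untreated wells of both experiments differed at 43.6% of 13479 genes, and 4 of the 8 immediate early genes were among them. Dusp1 was higher in experiment 1 (21.3% of genes were), and Ier3, Jun and Nr4a1 were lower (22.3% of genes). The wells of Dusp1 lay wholly above, as did those of 11.2% of genes, and those of Ier3 wholly below, as for 7.66% of genes. Egr1 (adjusted p = 0.433), Ier2 (0.297), Fos (0.570) and Junb (0.145) were not called. Each dose was therefore tested against the controls of its own experiment, and an order of levels across experiments carries this difference. The control comparison shares its wells with both dose comparisons.

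Marker levels of several cell types moved with ethanol as well. The counts of called markers stand beside unlike shares of all genes tested. At 10 mM 0.391% of genes were called higher and 0.266% lower, and at 30 mM 3.02% higher and 6.65% lower. The mature oligodendrocyte markers summed to 6005 to 6226 CPM with 10 mM ethanol and 4732 to 6046 CPM in the controls. With 30 mM ethanol they summed to 6520 to 11588 CPM, and to 4911 to 6094 CPM in the controls. At 10 mM 3 of the 10 were called higher (Mal, Mag and Cnp), with a median log2 fold change of 0.17. At 30 mM 7 of the 10 were called higher, with a median of 0.44. The highest sum was that of the 30 mM well of replicate 1, and the other 5 wells of that group lay at 6520 to 6678 CPM. Without that well Egr1 was called at 30 mM, as given above, and none of the other 7 tested genes was. The microglia markers summed to 2983 to 3522 CPM with 10 mM ethanol and 2808 to 3309 CPM in the controls. Of 11 tested there, 1 was called, Cx3cr1 (log2 fold change 0.29, adjusted p = 0.0357). With 30 mM ethanol they summed to 255 to 399 CPM, and to 251 to 423 CPM in the controls. Of 9 tested there, 1 was called, again Cx3cr1 (1.07, adjusted p = 0.0124). The fibroblast and mural markers summed to 554 to 611 CPM with 10 mM ethanol and 559 to 738 CPM in the controls, and to 372 to 437 CPM with 30 mM ethanol and 690 to 1032 CPM in the controls. Of 9 tested, 2 were lower at 10 mM (Col3a1, -0.38, and Dcn, -0.39) and 5 at 30 mM (Acta2, Col1a1, Col1a2, Col3a1 and Dcn). Astrocyte markers summed to 4214 to 4862 CPM with 10 mM ethanol and 4231 to 4506 CPM in the controls, and to 5091 to 6569 CPM with 30 mM and 3634 to 4692 CPM in the controls, with 0 and 5 of 7 tested called higher by edgeR at 10 mM and 30 mM. Neuron markers summed to 694 to 758 CPM and 644 to 719 CPM at 10 mM and in its controls, with Tubb3 higher (0.24, adjusted p = 0.0260) and Stmn2 lower (-0.40, adjusted p = 0.0291). At 30 mM and in its controls they summed to 504 to 641 CPM and 517 to 622 CPM. Of 6 tested there, 1 was called, Stmn2, which was lower (-0.71, adjusted p = 1.27e-05). The part of these cell types in the changes of the immediate early genes was not tested.

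Lists of related genes were read from the same fits. Among 22 other early transcription factors, 14 were tested at 10 mM and none was called by edgeR or limma-voom, nor by DESeq2 among the 5 to which it gave an adjusted p. In edgeR 1 had an unadjusted p under 0.05, against 10.1% of all genes tested, and the median log2 fold change was 0.00. Of 26 early feedback and effector genes, 22 were tested and 2 rose (0.391% of all genes did), with a median of 0.09. Ccn1, a secreted matrix protein, rose from 106 to 122 CPM in the controls to 149 to 184 CPM with 10 mM ethanol, without overlap (log2 fold change 0.44, adjusted p = 8.15e-05). Zfp36l1, which promotes the decay of AU-rich transcripts, rose by 0.35 (adjusted p = 0.00238). Of 18 ERK feedback targets, 14 were tested and 1 rose, Dusp7, an ERK phosphatase, by 0.44 (adjusted p = 0.0438), a call made in 5 of 19 alternative analyses. The median of that list was -0.12.

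**Figure D3:**
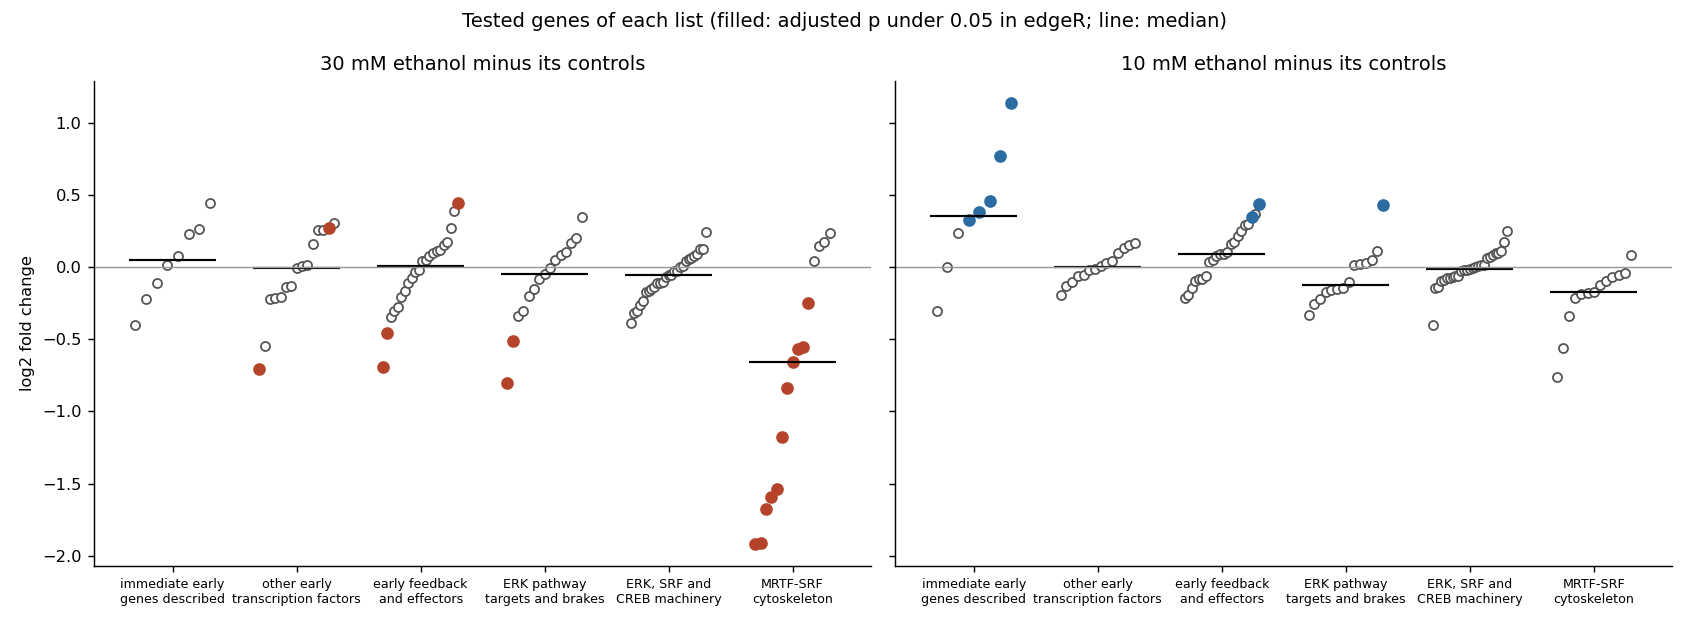
Log2 fold changes of the tested genes of each list at 30 mM and at 10 mM, one point per gene, with the list's median and called genes marked. At 10 mM the immediate early genes have a median of 0.36, and at 30 mM the cytoskeletal genes driven by SRF have a median of -0.65.

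At 30 mM, where 3.02% of all genes tested rose and 6.65% fell, 1 of 22 feedback and effector genes rose and 2 fell, 1 of 15 other early factors rose and 1 fell, and 2 of 15 ERK feedback targets fell. Ccn1 fell (log2 fold change -0.46, adjusted p = 0.000383), from 207 to 340 CPM in the controls to 159 to 215 CPM, and the difference between its changes at both doses was -0.91. The early growth arrest gene Btg2 rose by 0.45 (adjusted p = 0.00171) and the stress-response gene Gadd45b fell by 0.69 (adjusted p = 0.00278). Among the other early transcription factors, Cebpd rose by 0.27 (adjusted p = 0.00318), a call lost under 1 of 20 alternatives, and Maff fell by 0.70 (adjusted p = 0.00311). The ERK feedback targets Ccnd1, a cyclin that drives entry into the cell cycle, and Dusp5, a nuclear ERK phosphatase, fell by 0.51 (adjusted p = 6.65e-08) and 0.80 (adjusted p = 0.0418), and Dusp5 was called in 7 of 19 alternatives. The medians at 30 mM were 0.01 for the feedback and effector genes, -0.01 for the other early factors and -0.04 for the ERK feedback targets.

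The 27 genes of the kinases and factors upstream, among ERK, SRF and CREB, gave no call at either dose by edgeR or limma-voom, nor by DESeq2, which gave an adjusted p to 25 of them at 30 mM and 9 at 10 mM. In edgeR 5 had an unadjusted p under 0.05 at 30 mM, against 23.5% of all genes tested, and 1 at 10 mM, against 10.1%. Their medians were -0.05 and -0.01. The cytoskeletal genes that SRF drives with its cofactor MRTF were 17, of which 15 were tested at 30 mM, and 11 of them fell, against 6.65% of all genes tested, with a median of -0.65. Examples were the smooth-muscle myosin light chain Myl9 (log2 fold change -1.54), the calponins Cnn1 (-1.91) and Cnn2 (-1.18), the tropomyosin Tpm1 (-0.83), the actin-binding Tagln (-1.68) and the smooth-muscle actin Acta2 (-1.60). At 10 mM 13 were tested and none was called by edgeR or limma-voom, nor by DESeq2 among the 7 to which it gave an adjusted p. In edgeR 5 had an unadjusted p under 0.05, the median was -0.17, and 2 (Myl9 and Tpm1) were called lower without the 10 mM well of replicate 6. Acta2 is also on the list of fibroblast and mural markers, so its own CPM enter their summed level. Of that list, Col1a1 (-0.80), Col1a2 (-0.97), Col3a1 (-0.89) and Dcn (-0.79) fell with it at 30 mM. Pdgfrb (-0.08), Rgs5 (0.15), Kcnj8 (0.03) and Lum (-0.13) were not called there. The part of those cells in the fall of the cytoskeletal genes was not tested.

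The genes whose pattern over the 24 wells was most like that of Egr1 were found by the root mean square difference of log2 CPM, centred on the controls of each experiment, among 13343 genes other than the 10 described here. The nearest of these were Adam11 (0.421), S1pr5 (0.426), Hist2h3c2 (0.437), Cmtm5 (0.438) and Cdpf1 (0.439), against a median of 0.706 over all genes compared. S1pr5, a receptor for sphingosine 1-phosphate found on oligodendrocytes, had log2 fold changes of 0.75 at 30 mM and 0.68 at 10 mM, and Egr1 of 0.45 and 1.14. For Hist2h3c2, a histone gene, reads may be shared with near-identical copies. Of the immediate early genes, Ier2 (0.429), Fos (0.437) and Junb (0.458) were nearest to Egr1, with Ier2 and Fos nearer than Hist2h3c2, Cmtm5 and Cdpf1, and Nr4a1 (0.876) and Egr2 (0.890) farthest.

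Between replicate wells of the same group, co-variation was measured for each pair of the 8 genes. Over 28 pairs, the median Pearson r of deviations from the group mean was 0.106 across 24 wells, and 17 pairs were positive. By Pearson's r none passed an adjusted p of 0.05 by permutation, with 8 at an unadjusted p under 0.05. Positive among these 8 were Egr1 with Fos and with Junb (r = 0.49), and Fos with Ier2 (0.54) and with Junb (0.47). Negative were Nr4a1 with Fos, Egr1 (-0.60), Junb (-0.48) and Ier2 (-0.47). The wells did not settle whether these genes vary together. The pair with the lowest r was Fos and Nr4a1 (r = -0.68, permutation p = 0.0018, adjusted p = 0.0504, and r = -0.57 without the 2 outermost wells). Of the 28 pairs it was the 1 that passed by rank correlation (rho = -0.68, permutation adjusted p = 0.0459). Nr4a1 had only 7 to 22 counts per well. The pair with the highest r was Egr1 and Fos (r = 0.57, permutation p = 0.0141, adjusted p = 0.0988; rho = 0.53; r = 0.50 without the 2 outermost wells). Each well is its own library with its own depth, which the genes of a pair have in common.

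**Figure D4:**
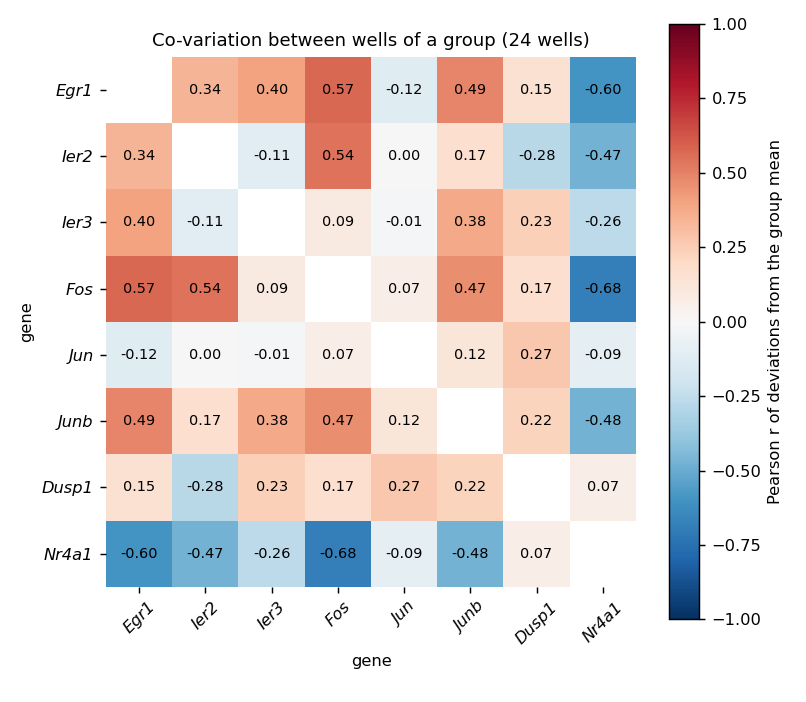
Pearson r between pairs of the 8 tested genes over 24 wells, after removal of the group means, with r printed in each cell. The most negative value is -0.68, for Fos and Nr4a1, and the most positive 0.57, for Egr1 and Fos.

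Of the 10 genes, 3 overlap another gene in the GENCODE M21 annotation, and it was not given in the sources used here whether counting used strand. Jun overlaps its antisense gene Junos by 689 bases, but Junos had only 5 to 11 counts summed over a group. Junb overlaps Prdx2 on the opposite strand by 351 bases, at the 3′ ends that tag sequencing reads. Prdx2 had a log2 fold change of 0.11 at 10 mM (unadjusted p = 0.0355, adjusted p = 0.459). Its level was far above that of Junb, at 612 to 743 CPM with 10 mM ethanol and 602 to 634 CPM in the controls. Junb lay at 45.6 to 67.5 and 34.8 to 47.0 CPM there. The part of Prdx2 reads in the Junb counts was not tested. Dusp1 overlaps Ergic1 (640 bases) and the pseudogene Gm8225 (956 bases) on the opposite strand, and AC122252.1 (1853 bases) and the pseudogene AC122252.4 (227 bases) on its own strand. Ergic1 fell by 0.42 at 30 mM (adjusted p = 0.00173). Values of Jun, Junb and Dusp1 are uncertain because of these overlaps, and for Dusp1 strand would not settle the overlaps on its own strand.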

How the data were processed

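Mouse oligodendrocyte RNA from 24 wells, 6 in each of 4 groups, was sequenced by 3′ tag sequencing. The authors deposited raw counts per gene, not normalized. The submitters' processing notes name cutadapt 1.18, STAR and GRCm39. The counter, annotation release, use of strand and removal of PCR duplicates are not given in the sources used here. Symbols were matched by Ensembl identifier for 52083 of 55359 genes (94.1%).

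Each dose was compared with the controls of its own experiment by edgeR 4.0.16 (R 4.3.3): filterByExpr with a minimum count of 10, TMM scaling, quasi-likelihood test and Benjamini-Hochberg adjustment over all tested genes. The difference between doses was fitted over all wells, and the controls were compared with each other. The test was checked on simulated counts, where log2 changes of 1 were called in 96.3% of cases at 30 mM and 95.1% at 10 mM, and changes of 0.5 in 54.4% and 55.2%. Of the calls, 4.69% and 5.38% were false with changes of 1, and 3.64% and 7.02% with changes of 0.5. All genes were simulated with the same relative spread between wells, so the check does not cover differences in spread between genes. In 60 pairs of replicate wells, the chi-square of the counts per degree of freedom was 1.07 to 2.88, where sampling noise alone gives about 1. The largest p of this chi-square test was 3.4e-11, but over so many genes a small excess is enough. Some pairs were thus close to sampling noise, and the check cannot tell whether wells came from separate pups. Co-variation used log2 CPM with a prior count of 2 and 100000 permutations of wells within groups.

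The 10 genes and the lists were chosen with earlier results of these data in view. Named from the lists were called genes, up to 6 per list and dose by smallest p, and the 5 genes most like Egr1 outside the 10. Alternatives were DESeq2 1.42.0, limma-voom 3.58.1, upper-quartile scaling, other filters and thresholds, a joint fit, a replicate block and leaving out each well. The main fits did not pair wells by replicate number, as no such pairing was seen (closing section).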

Additional observations from a re-analysis of the deposited data

Results flagged for a closer look

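Of 100 series of 6 wells checked for a well apart from its group, 2 had one, and chance gives about 5. For Ier3 the experiment 1 control well of replicate 6 was at 246.7 CPM, with the other wells at 187 to 208 CPM. For Acta2 the 10 mM well of replicate 6 was at 37.7 CPM, with the others at 14.0 to 21.9 CPM.

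The immediate early genes and the called genes named from the lists were 25 genes. For 10 of them the change at 30 mM differed from that at 10 mM in the edgeR test of the difference over 24 wells. Of all 14655 genes tested, 3.28% did. The list genes were named because they were called at a dose in the same wells, which favours such a difference, so the 2 shares are not alike. The log2 differences (30 mM minus 10 mM) were -0.71 for Egr1, -0.76 for Ier2, -0.91 for Ccn1 and -0.35 for Ccnd1. They were -1.21 for Myl9, -1.01 for Cnn2, -1.16 for Cnn1, -0.63 for Tpm1 and -1.43 for Acta2, all SRF-driven cytoskeletal genes. For Cebpd the difference was 0.36. Dose and experiment cannot be told apart in any of them.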

How the results depend on the processing

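At 10 mM, Egr1 and Ier2 were called in 19 of 19 alternatives that gave an adjusted p, Jun in 18 of 20, Fos in 16 of 20 and Junb in 14 of 19. The number of immediate early genes called at 10 mM was 2 with DESeq2, whose filter on mean count left Egr1, Ier2 and Junb without an adjusted p, 3 in the joint fit, 2 at an adjusted p under 0.01 and 2 to 5 when 1 well was left out. At 30 mM it was 2 with upper-quartile scaling (Egr1 and Jun), 1 without the low-count filter, 1 in the joint fit, 3 at an adjusted p under 0.1 and 0 to 1 when 1 well was left out. For the difference it was 0 with upper-quartile scaling, 0 at an adjusted p under 0.01 and 1 to 2 when 1 well was left out. Between controls, 1 to 2 were higher and 2 to 3 lower in experiment 1 when 1 well was left out.

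The number of genes called at 30 mM was 641 at an adjusted p under 0.01 and 953 to 1563 without single wells. At 10 mM it was 59 with at least 1 CPM in 6 wells, 21 in the joint fit, 28 at an adjusted p under 0.01, 150 at one under 0.1 and 37 to 95 without single wells. For the difference it was 173 at an adjusted p under 0.01, 854 at one under 0.1 and 329 to 759 without single wells, and for the controls 5367 to 6250. Upper-quartile scaling turned the split of higher and lower genes from 400 and 880 to 551 and 697 at 30 mM, and from 129 and 352 to 222 and 203 for the difference.

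Deviations of same-numbered wells had correlations of -0.18 to 0.25 at 30 mM and -0.04 to 0.04 at 10 mM. Of 6 wells at each dose, 1 and 0 correlated best with their own number. No pairing by number was seen, but so few wells cannot exclude one. With a replicate block, 1208 genes were called at 30 mM, with 1 immediate early gene (Egr1), 68 at 10 mM with 5, 461 for the difference with 2 and 5860 between controls with 1 higher and 3 lower.

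Signs near 0 turned. Ier2 at 30 mM was -0.0117 without the filter, -0.0184 with at least 1 CPM, -0.0258 with limma-voom and -0.10 to 0.10 without single wells. Ier3 at 10 mM was -0.00614 with upper-quartile scaling and -0.0100 to 0.0357 without single wells. Nr4a1 for the difference was -0.0589 to 0.139 without single wells. In the simulated counts, changes of 0.5 were called in 54.4% of cases at 30 mM and 55.2% at 10 mM. Many changes of that size or less can therefore be missed, though some were called, as Jun at 10 mM (0.33).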
